A study of Mus musculus with 41 samples.

Results

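Epithelial mammary tumors from mice fed a high fat diet in adulthood only were compared with epithelial tumors from mice kept on a low fat diet for life. Members were chosen from the sample labels alone, as tumors with the morphology "p53 variable" and the diet group LFD to HFD switch (LFD-HFD) or LFD. This gave 14 tumors of the 41 in the series, 6 of them LFD-HFD and 8 LFD. The other 27 arrays hold 15 epithelial tumors of the HFD and HFD-LFD regimens and 12 spindle cell tumors.

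All 14 tumors arose from mammary duct fragments of Trp53-null BALB/c mice, taken in equal parts from 4 donors in each diet group and placed in the cleared inguinal fat pads of wild-type female BALB/c recipients at 3 weeks of age. The recipients were wild type for Trp53, and the sources used here do not give the origin of the stroma in each tumor. LFD mice ate a diet with 10% of its energy as fat throughout. LFD-HFD mice ate the same diet until 10 weeks of age and then a diet rich in animal fat with 60% of its energy as fat. Tumors were labelled early or late, with a latency of 52 weeks as the divide, and were taken at a diameter of 1 cm. The LFD-HFD group held 3 early tumors (80L, 82L, 92R) and 3 late tumors (71L, 90R and the tumor called LFD-HFD replicate 1 here). The LFD group held 4 early tumors (11R, 17R, 22R, 31R) and 4 late tumors (11L, 13L, 19R, 27L4A). Whether 11L and 11R, which share a number, came from 1 mouse is not stated in the labels, and their ratios correlated at r = 0.873 across genes.

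Trp53 encodes the transcription factor that halts division or triggers cell death after DNA damage, and mammary epithelium without it forms tumors of varied histology after a long latency. A diet rich in animal fat supplies fatty acids that act as fuel and as ligands of the PPAR receptors, which switch on genes of fatty acid uptake and oxidation. Tumor growth also draws on proliferation, on new vessels fed by VEGF family ligands, and on macrophages, and the comparison asks whether RNA from these programs differed after adult exposure to HFD.

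Each tumor was hybridized on a 2-colour array against 1 reference RNA pooled from mouse cell lines. A value is the log2 ratio of the tumor signal (Cy5) over the reference signal (Cy3), so a value of 1 stands for a ratio of 2 to 1, and a difference between groups is a difference of these log2 ratios, LFD-HFD minus LFD. Between 61.6% and 89.8% of probes were well above background in the tumor channel. Array medians lay between 0.155 and 0.274. Between 0.532% and 1.56% of spots were left out as outliers. The arrays lay on 4 slides and no slide held both groups. One slide held 4 LFD-HFD tumors (71L, 82L, 90R and LFD-HFD replicate 1) and another the other 2 (80L, 92R) with 2 late HFD tumors. The 4 early LFD tumors shared a slide, as did the 4 late LFD tumors. Slide is thus tied to diet in these tumors, and the 2 cannot be told apart. Pairs of tumors correlated across genes at a median r of 0.834 within LFD-HFD (15 pairs), 0.846 within LFD (28 pairs) and 0.835 between the groups (48 pairs). The LFD tumor 13L stood farthest from the rest, with r = 0.814 against the mean of the other 13 tumors.

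No gene differed between LFD-HFD and LFD epithelial tumors at an adjusted p under 0.10. Of 20913 genes tested with limma, 0 were called higher and 0 lower (0% in each direction). At an unadjusted p under 0.05, 631 genes (3.02%) were higher and 739 (3.53%) lower in LFD-HFD, and with each array centred on its median the split was 781 higher and 547 lower. For 38 genes (0.182%) all 6 LFD-HFD tumors lay above all 8 LFD tumors, and for 51 genes (0.244%) all 6 lay below. Background correction with normexp and loess called 2 genes lower, a fit on the 14 tumors alone called 3 genes higher, and a random block for slide called none. The median standard error of a gene's difference was 0.288.

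The reference channel held the same RNA on all arrays, yet its signal differed between the arrays of the 2 groups. Tested on its own with limma, 609 genes were brighter and 353 dimmer in the reference channel of the LFD-HFD arrays at an adjusted p under 0.10. With slide as a random block (correlation 0.541) 0 genes passed and 451 had an unadjusted p under 0.05. The imbalance fell mostly on one side of the diet comparison. Among the 739 genes lower in LFD-HFD at an unadjusted p under 0.05, the reference channel differed more than the tumor channel in 46.7%, against 8.4% of the 631 higher genes. Over all genes these shares were 35.9% and 33.6%.

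Genes with a symbol and a tumor signal well above background were ranked by p, which leaves out the transcript 9130022E09 described below. The 10 of smallest p in each direction are given next by name, and none of them passed the threshold. Their adjusted p ranged from 0.277 to 0.34 (limma). They were chosen for their p in these tumors, so the values that follow describe them and test nothing further. In 7 of the 20 the groups did not overlap.

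Celf6, an RNA-binding regulator of splicing (chromosome 9, 59455036 to 59455095, positions of its probe in the NCBI37/mm9 build), had a lowest, median and highest log2 ratio of -1.99, -1.78 and -1.63 in LFD-HFD and of -3.78, -2.98 and -2.13 in LFD. All 6 LFD-HFD tumors were above all 8 LFD tumors, with a difference of 1.24 ± 0.28 (SE, limma, adjusted p = 0.277). Rmrp, the RNA of the RNase MRP complex that trims ribosomal RNA (chromosome 4, 43505847 to 43505906), ran from 1.53 to 2.45 in LFD-HFD and from 0.53 to 1.345 in LFD, again without overlap. Its difference was 0.91 ± 0.20. Tat, the first enzyme of tyrosine breakdown (chromosome 8, 112523207 to 112523266), did not overlap either, at -4.02 to -3.49 against -4.925 to -4.25.

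Cttnbp2, a cortactin-binding protein (chromosome 6, 18316612 to 18316671), had the largest difference of the 20, 2.79 ± 0.63, a 6.92-fold higher ratio. Its values were 2.62 in 71L, 2.71 in 80L, 2.70 in 90R and 2.70 in 92R, but 0.48 in 82L and 0.065 in LFD-HFD replicate 1. The LFD tumors lay between -1.98 and -0.40 except 27L4A at 1.30, so the groups overlapped through these 3 tumors. Fbln2, a fibulin of the extracellular matrix, had a difference of 1.503 ± 0.396 and ran from -0.68 to 2.53 against -1.98 to 0.06. Camp, the antimicrobial cathelicidin of neutrophil granules, had a difference of 1.44 ± 0.34, with 71L at -4.84 and 90R at -4.77 well above the other LFD-HFD tumors, which lay between -6.37 and -6.02.

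The other genes with higher ratios differed by 0.52 to 1.23. They were Psmg2, a chaperone of proteasome assembly (1.23), Mgat5b, which branches glycans (1.17), Kbtbd2, an adaptor of a cullin ubiquitin ligase that acts on insulin signaling (0.77), and Myl4, a myosin light chain (0.52). Kbtbd2 differed by 1.21 in early and 0.34 in late tumors. For all 10 genes of this direction the tumor channel differed more than the reference channel.

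**Figure D1:**
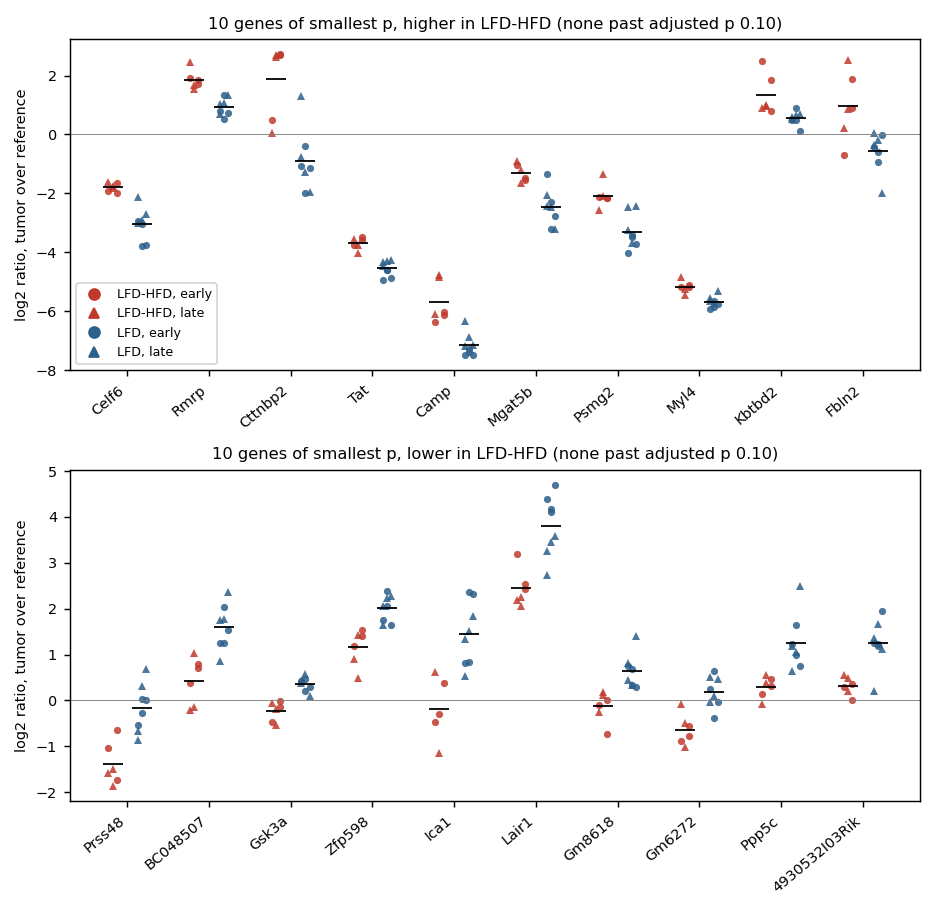
Log2 ratio of tumor over reference (y axis) in each of the 14 tumors for the 10 genes with a symbol of smallest p in each direction (x axis), LFD-HFD in red and LFD in blue, circles early and triangles late, black bars the group means. Celf6, Rmrp and Tat separate the groups in the upper panel and Gsk3a, Zfp598, Gm8618 and Ppp5c in the lower, and no gene passed an adjusted p of 0.10.

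Among the genes with lower ratios, Gsk3a and Ica1 were lower in the tumor channel itself. Gsk3a, the alpha form of glycogen synthase kinase 3 (chromosome 7, 26013279 to 26013338), lay between -0.53 and -0.02 in LFD-HFD and between 0.09 and 0.58 in LFD, without overlap. Its difference was -0.59 ± 0.13 (limma, adjusted p = 0.277), with -0.81 in the tumor and -0.22 in the reference channel. With the tumor channel fitted alone, Gsk3a had an adjusted p of 0.0933. Ica1, a protein of secretory vesicles (chromosome 6, 8580546 to 8580605), lay between -1.15 and 0.61 in the 5 LFD-HFD tumors with a value (90R had none) and between 0.52 and 2.36 in LFD. Its tumor channel differed by -1.89 and its reference channel by -0.29.

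For the other 8 genes of this direction the reference channel differed more than the tumor channel. Prss48, a serine protease (chromosome 3, 85797732 to 85797791), had the smallest p of all 20 genes (limma, adjusted p = 0.277). Its ratio was -1.865 to -0.64 in LFD-HFD and -0.86 to 0.68 in LFD, a difference of -1.23 ± 0.24. Its tumor signal was higher by 0.65 in LFD-HFD and its reference signal was higher by 1.87. BC048507, Gm8618, Gm6272, Ppp5c and 4930532I03Rik showed the same order, with tumor signals higher by 0.27 to 1.43 and reference signals higher by 1.23 to 2.61. Ppp5c encodes a serine and threonine phosphatase. For Zfp598, a ubiquitin ligase that acts on stalled ribosomes, and Lair1, an inhibitory collagen receptor of immune cells, the tumor channel differed by -0.05 and -0.20 and the reference channel by 0.79 and 1.16. The lower ratios of these 8 genes were measured beside a brighter reference on the LFD-HFD arrays.

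**Figure D2:**
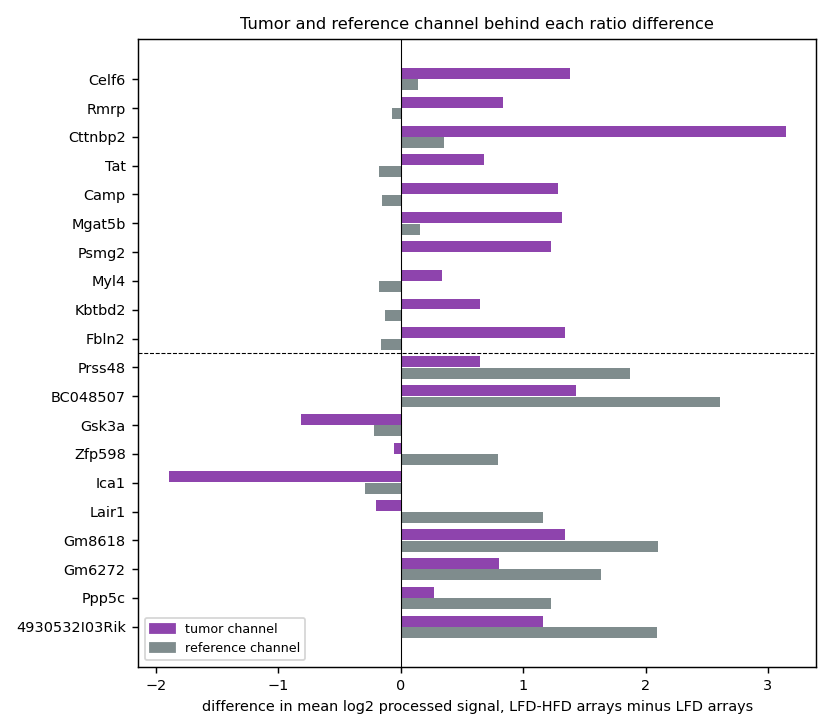
Difference between LFD-HFD and LFD arrays in mean log2 processed signal (x axis) for the same 20 genes (y axis), tumor channel in purple and reference channel in grey, with the 10 higher genes above the dashed line. The reference bars are within 0.5 of 0 for all 10 higher genes and above 0.5 for 8 of the 10 lower genes.

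Several gene products had been stained in sections of these tumor groups, so the RNA of the same genes was examined. None passed the threshold. Pcna, a sliding clamp of DNA replication and marker of proliferation, lay between 0.10 and 0.45 in LFD-HFD and between -0.82 and 0.57 in LFD. The difference was 0.40, with a 95% interval of 0.012 to 0.788 (limma, adjusted p = 0.743), and it was 0.46 in early and 0.34 in late tumors. Pecam1, the endothelial antigen CD31, lay between -1.11 and -0.66 against -1.75 and -0.845. Its difference of 0.37 had an interval of -0.16 to 0.89 (adjusted p = 0.894). Adgre1, the macrophage antigen F4/80, had a difference of -0.30 with an interval of -0.95 to 0.35. In these bulk samples, fewer cells of a type and less RNA per cell cannot be told apart.

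Arg1, the arginase of M2 macrophages, had a median of -2.67 in LFD-HFD and -2.055 in LFD, and the early LFD tumor 17R lay at 1.15 while all other tumors were at or below -1.51. Its difference was -1.91 among early and 1.11 among late tumors (limma, interaction adjusted p = 0.9998). Krt5, a basal keratin, and Krt18, a luminal keratin, differed by -0.22 (interval -1.90 to 1.47) and 0.26 (interval -0.58 to 1.096). Esr1, the estrogen receptor, spanned -2.60 to 1.84 in LFD-HFD and -3.12 to 5.09 in LFD. The highest value was that of 31R and the lowest that of 13L. Pgr, the progesterone receptor, was not tested, since none of its 3 probes passed the filter on low signals.

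**Figure D3:**
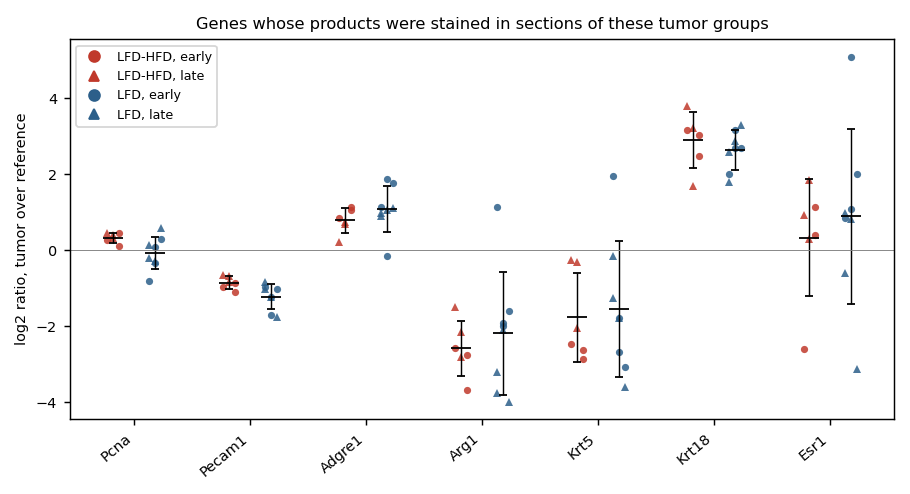
Log2 ratio of tumor over reference (y axis) per tumor for 7 genes whose products were stained (x axis), LFD-HFD in red and LFD in blue, circles early and triangles late, with group means and SD bars. The groups overlap for all 7 genes, and the spread is widest for Esr1, from -3.12 to 5.09.

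The 30 gene lists showed modest shifts around the median of all genes, which was -0.024 with 46.8% of genes above 0. None of the 522 list genes tested was called. Leaving out 1 tumor divided the median by over 1.5 or turned its sign for all 30 lists, with a turned sign for 16, and the early and late medians had opposite signs for 15. The widest positive shift was in mesenchymal and EMT factors (median 0.62, 8 of 11 above 0). In this list 3 genes had an unadjusted p under 0.05, all higher in LFD-HFD, against 3.02% of all genes. Twist1, a transcription factor of mesenchymal cells, lay between -0.33 and 1.30 in LFD-HFD and between -1.99 and 0.39 in LFD (difference 1.12 ± 0.39, adjusted p = 0.604). Prrx1, a homeobox factor of mesenchyme, differed by 1.03 and Vim, the filament protein vimentin, by 0.77. The list median was 0.72 in early and 0.42 in late tumors, and 0.363 without the LFD-HFD tumor 80L. The mean over the list overlapped, at -1.40 to -0.41 in LFD-HFD and -1.78 to -1.06 in LFD. It was highest in 80L (-0.41) and 92R (-0.48), which shared a slide. The fibroblast and matrix genes, which mark stromal cells, had a median of 0.07 (0.485 in early, -0.29 in late tumors) with 16 of 24 above 0 and 0 with an unadjusted p under 0.05. Fap, a protease of activated fibroblasts, differed by 0.33 over 5 LFD-HFD tumors with a value. With outlier spots kept, its mean tumor signal differed by -0.29 and its mean reference signal by -0.52. With the tumor channel fitted alone, Fap differed by 0.22.

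Endothelial genes mostly had differences above 0, without any single gene standing out. Of 19 tested, 18 had a difference above 0, the median was 0.295 and 0 had an unadjusted p under 0.05. The median was 0.13 in early and 0.405 in late tumors, 0.166 without 80L and 0.16 with normexp and loess. The summed view overlapped widely, since the mean over the list was -1.59 to -0.55 in LFD-HFD and -1.84 to -0.66 in LFD. Cldn5, a tight junction claudin of endothelium, had the largest difference at 0.72 (interval -0.04 to 1.49). Its tumor signal differed by 0.47 and its reference signal by -0.25. Among the angiogenic factors (median 0.23, 10 of 17 above 0) 3 had an unadjusted p under 0.05, all higher in LFD-HFD, against 3.02% of all genes. This median was 0.122 without 80L, 0.081 without 82L, 0.141 without 27L4A and -0.031 with the tumor channel alone. Pgf, placental growth factor and a ligand of Flt1, lay between 2.10 and 2.73 in LFD-HFD and between -0.14 and 2.03 in LFD, so that all 6 were above all 8 (difference 1.25 ± 0.43, adjusted p = 0.597). Vegfa, the main ligand of endothelial growth, differed by 0.80 and ran from 0.56 to 1.51 against -0.57 to 1.31. Its difference was 0.25 in early and 1.34 in late tumors. Pdgfa differed by 1.09, and the LFD-HFD tumor 90R at 2.49 lay far above the next at 0.705.

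Genes of fatty acid oxidation and PPAR targets had 5 of 31 members with an unadjusted p under 0.05, all higher in LFD-HFD, against 3.02% of all genes. The list median was 0.12 with 17 of 31 above 0, within a range from -1.05 to 1.24, and it was 0.014 without 13L and 0.037 with normexp and loess. Cyp4a14, a fatty acid hydroxylase induced through PPAR alpha, lay between -6.21 and -5.52 in LFD-HFD and between -7.49 and -6.24 in LFD, without overlap (difference 1.03 ± 0.35, adjusted p = 0.583). Its relative Cyp4a10 differed by 0.77, Angptl4, an inhibitor of lipoprotein lipase, by 0.96 and Acadm, the medium-chain acyl-CoA dehydrogenase, by 0.50. The tumor signal differed by 1.08 for Cyp4a14, 0.75 for Cyp4a10, 0.63 for Angptl4 and 0.30 for Acadm, and the reference signal by 0.05, -0.02, -0.33 and -0.20. For Angptl4 and Acadm a dimmer reference on the LFD-HFD arrays thus made up part of the difference. Adipocyte genes had a median of 0.07 with 10 of 16 above 0, but -0.285 in early and 0.46 in late tumors, and their mean was -3.59 to -1.97 in LFD-HFD and -3.67 to -2.30 in LFD. Aqp7, the glycerol channel of fat cells, was the 1 member with an unadjusted p under 0.05, at 0.58.

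The other metabolic lists had few members with an unadjusted p under 0.05. Over all genes the shares at this p were 3.02% higher and 3.53% lower. Fatty acid and triglyceride synthesis had a median of 0.01 with 0 of 18 genes at an unadjusted p under 0.05, and Fasn, the fatty acid synthase, differed by -0.48. Cholesterol synthesis and uptake (median -0.07) had 1 of 24, the sterol carrier Stard4 at 0.555, with 1.03 in early and 0.08 in late tumors. Glycolysis and hypoxia (median -0.02, with -0.30 in early and 0.20 in late tumors) had 1 of 25, the glycolytic isomerase Gpi1 at -0.46. The respiratory chain (median 0.05) had 3 of 27, all lower in LFD-HFD, against 3.53% of all genes. Among them were Sdha, a subunit of succinate dehydrogenase, at -0.61 and Atp5a1 of the ATP synthase at -0.37. The tumor channel differed by -0.55 for Sdha and -0.15 for Atp5a1, and the reference channel by 0.06 and 0.22. For Atp5a1 the reference channel thus differed more than the tumor channel. The insulin and IGF genes (median 0.25) had 1 of 14, Igf1r, the IGF1 receptor, at 0.81. That median was -0.03 without the LFD tumor 13L and 0.018 without 90R.

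Several immune lists had medians below 0, again with no member called. Interferon-induced genes had a median of -0.38 with 3 of 33 above 0, and 0 reached an unadjusted p under 0.05. This median was -0.60 in early tumors, -0.075 in late tumors, -0.016 without the LFD-HFD tumor 90R, -0.217 without 17R and -0.247 without 22R. T and NK cell genes had a median of -0.295 with 1 of 16 above 0, with -0.85 in early and 0.08 in late tumors and between -0.178 and -0.092 without 71L, 82L, 90R, 17R or 22R, and Gzma, a granzyme of cytotoxic cells, differed by -0.90. Chemokines and cytokines had a median of -0.31 (-0.102 without 17R) with 6 of 25 above 0, and Ccl3, a chemokine of myeloid cells, differed by -0.82. The M2 macrophage list had a median of -0.44 with 2 of 14 above 0, but -0.025 without 17R, with -0.57 in early and -0.045 in late tumors, and Folr2, a folate receptor of resident macrophages, differed by -0.65.

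General macrophage genes (median -0.07) split, since Itgam, the integrin CD11b, was at 0.66 and Siglec1, a sialic acid receptor of macrophages, at -0.77, both with an unadjusted p under 0.05. The Itgam values included 2.22 in LFD-HFD replicate 1, far above the next at 0.85. M1 macrophage genes had a median of -0.13 with 2 of 8 above 0, and Ptgs2, an inducible cyclooxygenase, differed by 1.38 (interval -0.54 to 3.29). B and plasma cell genes had a median of -0.06 with 3 of 8 above 0, and Fcrla differed by -0.63 within a range of -2.84 to 3.93. Neutrophil genes had a median of 0.31 with 11 of 13 above 0 (0.095 in early, 0.43 in late tumors, 0.086 without 71L and 0.137 without 27L4A), Camp being the 1 member with an unadjusted p under 0.05. MHC class II genes had a median of 0.14 with 6 of 9 above 0, 0.025 without 82L and -0.008 without 13L. Ciita, their transactivator, differed by 1.15 ± 0.40 over 5 LFD-HFD tumors with a value (adjusted p = 0.602).

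Lists of the epithelium, of division and of cell death were close to the median of all genes or varied more within a group than between groups. Basal and myoepithelial genes had a median of -0.20 with 8 of 17 above 0, and Cdh3, the P-cadherin, differed by -1.98 over 5 LFD-HFD tumors with a value (interval -4.395 to 0.44). Luminal genes had a median of 0.18 with 10 of 18 above 0, and Elf5, a factor of alveolar cells, differed by 0.67. Epithelial junction genes had a median of -0.19 with 3 of 12 above 0, and Grhl2, a factor that maintains epithelial junctions, was the 1 member with an unadjusted p under 0.05, at -0.41. Milk genes had a median of -0.07, and Wfdc18 differed by 0.80. Cell division genes had a median of 0.04 with 16 of 27 above 0, Pcna being the 1 member with an unadjusted p under 0.05. Promoters of apoptosis had a median of 0.06, and 2 of 15 had an unadjusted p under 0.05, both lower in LFD-HFD, against 3.53% of all genes. Bax, which permeabilizes the outer mitochondrial membrane, was at -0.39. Restrainers of apoptosis had a median of -0.055, and Xiap, a caspase inhibitor, differed by 0.24. For Xiap the tumor signal differed by 0.09 and the reference signal by -0.16.

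Skeletal muscle genes, a sign of muscle in the excised tissue, had a median of 0.09 (0.69 in early, -0.19 in late tumors, -0.086 without 82L) with 0 of 15 at an unadjusted p under 0.05, and Tnnc2 differed by 0.27. Their mean was -5.33 to -3.37 in LFD-HFD and -5.38 to -3.19 in LFD. Circadian clock genes had a median of 0.06, and 2 of 17 had an unadjusted p under 0.05, both lower in LFD-HFD, against 3.53% of all genes. Both encode repressors of the clock. Cry2 differed by -0.78. Cry1 differed by -1.10, with a tumor channel higher by 0.71 and a reference channel higher by 1.81 on the LFD-HFD arrays. Its difference was -1.91 in early and -0.29 in late tumors. The Cry1 tumor signal was well above background in only 4 of 6 LFD-HFD and 4 of 8 LFD tumors. Trp53 targets had a median of -0.01 with 5 of 12 above 0, and Ccng1, a cyclin induced by Trp53, differed by 0.32. Under normexp with loess, median centring or the authors' matrix, 10 of the 30 list medians changed sign. These were B and plasma cell, Trp53 targets, adipocyte, apoptosis promoting, fatty acid and triglyceride synthesis, glycolysis and hypoxia, luminal, macrophage, milk, and respiratory chain, whose medians lay between -0.07 and 0.18.

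**Figure D4:**
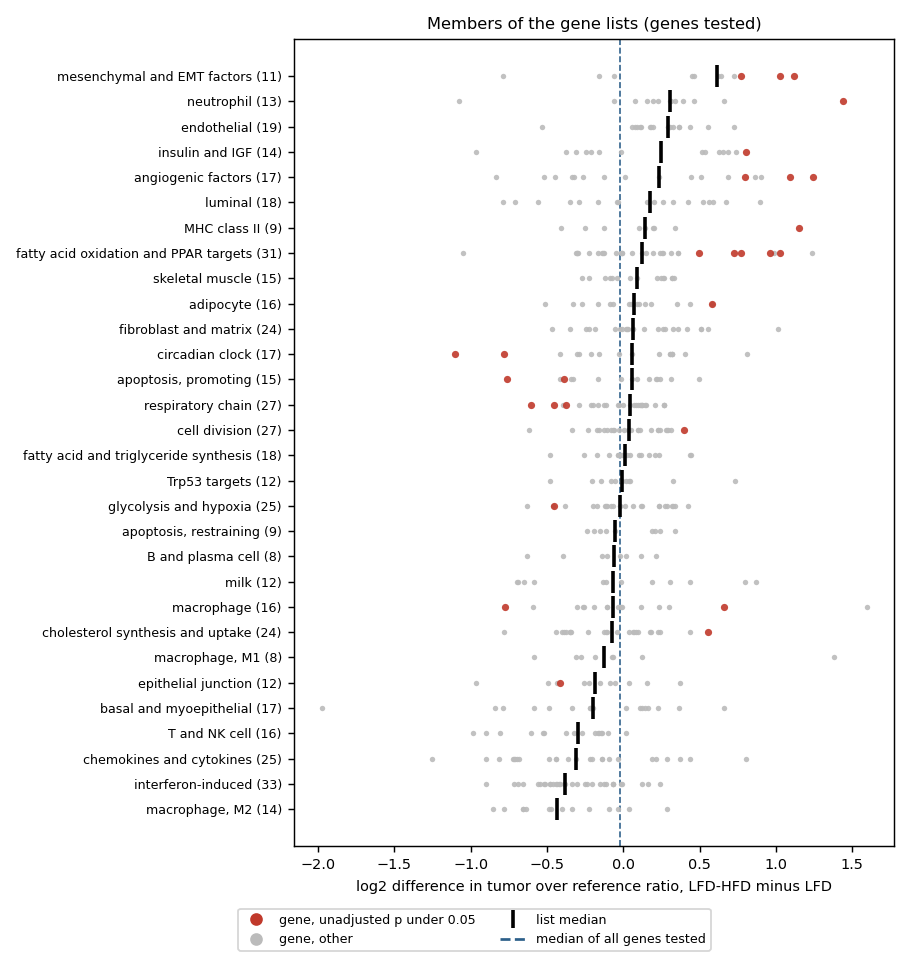
Log2 difference, LFD-HFD minus LFD (x axis), for each member of the 30 gene lists (y axis, with the number of genes tested), in red where the unadjusted p was under 0.05, with the list median as a black bar and the median of all genes as a dashed line. List medians run from -0.44 for M2 macrophage genes to 0.62 for mesenchymal and EMT factors, and no member was called.

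Early and late tumors gave no called difference either. In early tumors (3 against 4) 0 genes passed with limma and 422 were higher and 470 lower at an unadjusted p under 0.05. In late tumors (3 against 4) 0 passed, with 455 higher and 662 lower. The test of the difference between the early and the late comparison called 0 genes, with 547 at an unadjusted p under 0.05. Among the genes named above, the early and late differences of Esr1 (-2.62 and 1.504), Cdh3 (-4.09 and 0.75) and Krt5 (-1.26 and 0.82) had opposite signs, with an interaction adjusted p of 0.9998 for each (limma). In LFD the early and the late tumors were on separate slides.

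The genes beside Cttnbp2 on chromosome 6 were looked at after their values were seen. All 10 genes tested with a probe within 1 Mb of the St7 or Cttnbp2 probes are given. In map order they were Tes, Cav2, Cav1, Met, Capza2, St7, Cftr, Cttnbp2, the transcript 9130022E09 and Lsm8. Met encodes the receptor of hepatocyte growth factor, Cav1 and Cav2 the caveolins of membrane pits, Capza2 an actin capping protein and Cftr a chloride channel.

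Met was high in 4 LFD-HFD tumors, with 5.48 in 71L, 5.02 in 80L, 5.72 in 82L and 6.03 in 92R, and low in LFD-HFD replicate 1 (1.68) and 90R (1.37). In LFD it was 5.59 in 11R, 4.77 in 13L, 5.81 in 22R and 3.53 in 31R, and between 1.28 and 2.09 in the other 4. Its groups overlapped, with a difference of 0.94 (interval -1.36 to 3.24). The mean over Tes, Cav2, Met and Capza2 was 5.47, 4.94, 4.23 and 4.90 in 71L, 80L, 82L and 92R, 5.485 in 22R, 3.35 in 11R and 3.16 in 13L. The remaining 7 tumors lay between 0.94 and 1.97. Cav1, which lies between Cav2 and Met, was not part of this mean. It was -2.08 in 82L, the lowest LFD-HFD value, and -3.06 in 11R, against -0.34 in 22R. The differences were 1.19 for Tes, 2.225 for Cav2, 1.26 for Cav1, 1.51 for Capza2 and 0.78 for Lsm8. Of these, Cav1 had the smallest adjusted p, at 0.683 (limma).

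St7 and Cttnbp2 did not follow Met in every tumor, and for both genes the groups overlapped. St7 was 3.46, 3.23, 2.82 and 3.56 in 71L, 80L, 82L and 92R but -1.505 in 22R, and 2.13 in 13L, the highest LFD value. Its difference was 2.335 ± 0.66 (limma, adjusted p = 0.41). The probe of transcript 9130022E09 (18379728 to 18379787) comes next after that of Cttnbp2 in map order. Whether this transcript belongs to Cttnbp2 is not given in the sources used here. Its ratio differed by 3.51 ± 0.75 (limma, adjusted p = 0.277), with 1.37 to 4.06 in LFD-HFD and -2.91 to 2.515 in LFD. The LFD-HFD tumor 90R was high for Cttnbp2 (2.70) and 9130022E09 (3.57) but not for Met. Cftr, between St7 and Cttnbp2, differed by -0.17. In the other regimens St7 averaged 0.19 ± 1.11 (SD, 7 of 8 tumors with a value) in the HFD and 0.28 ± 1.38 (n = 7) in the HFD-LFD tumors, against 2.34 ± 1.515 (n = 6) in LFD-HFD and 0.004 ± 1.125 (n = 8) in LFD, with single tumors as high as 2.67 in HFD and 3.22 in HFD-LFD. Cttnbp2 averaged -0.915 ± 1.17 (n = 8) in HFD and -0.21 ± 1.46 (n = 7) in HFD-LFD. Among the genes named first, in HFD-LFD tumors Rmrp averaged 1.94 ± 0.44, Tat -3.60 ± 0.25 and Mgat5b -1.19 ± 0.37 (n = 7), against 1.86 ± 0.32, -3.68 ± 0.20 and -1.30 ± 0.31 in LFD-HFD (n = 6). In HFD tumors these 3 genes averaged 0.949 ± 0.38 (n = 8), -4.43 ± 0.55 (n = 7) and -2.31 ± 0.68 (n = 8). The LFD averages were 0.948 ± 0.30, -4.54 ± 0.26 and -2.47 ± 0.62 (n = 8). Camp, in contrast, averaged -5.71 in HFD (n = 6), -5.55 in HFD-LFD (n = 7) and -5.70 in LFD-HFD, against -7.14 in LFD. These differences from the other regimens were not tested. The reference channel of St7 and Cttnbp2 differed by 0.30 and 0.35 between the 2 groups, against 2.63 and 3.14 in the tumor channel.

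**Figure D5:**
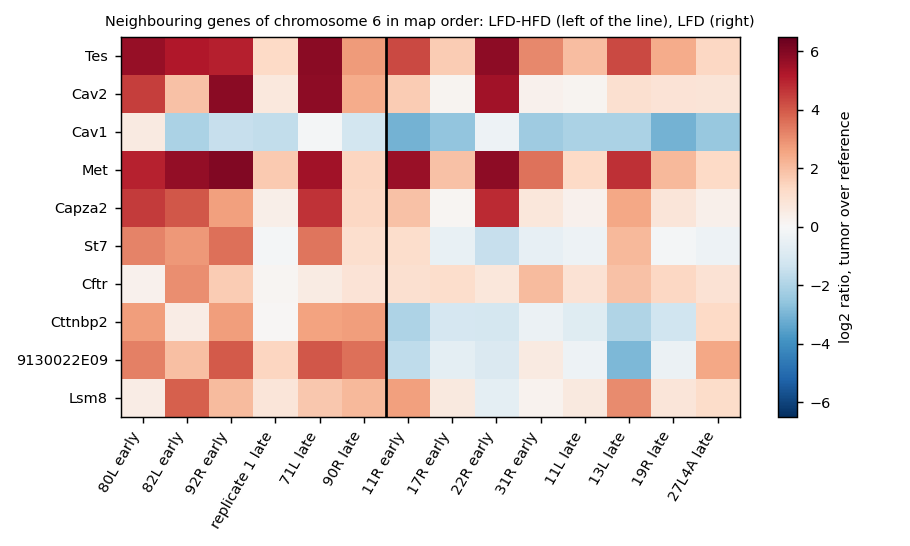
Log2 ratio of tumor over reference (colour) for 10 neighbouring genes of chromosome 6 in map order (rows) in the 14 tumors (columns, LFD-HFD left of the line and LFD right). Met and Tes are high in tumors of both groups, while Cttnbp2 is at 2.62 or more in 4 LFD-HFD tumors and at most 1.30 in LFD.

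As a check of the labels, Trp53 was read in every tumor. Its probe (chromosome 11, 69404204 to 69404263) gave 0.45, -0.115, -0.285, -0.88, 0.71 and -0.30 in LFD-HFD replicate 1, 71L, 80L, 82L, 90R and 92R. The LFD tumors lay between 0.41 and 0.997 except 13L at -2.25. Whether this probe lies within the deleted part of the gene is not given in the sources used here, so the values do not test the Trp53-null label. In these tumors of female mice, Ddx3y and Eif2s3y of the Y chromosome were well above background in the reference channel on 14 arrays and in the tumor channel on 0, at ratios of -7.59 to -5.93 and -7.10 to -5.44. The reference was thus read in the Cy3 channel, as the labels give it.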

How the data were processed

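Tumor RNA (Cy5) and reference RNA (Cy3) shared each array. The deposited intensity values are the scanner software's processed signals, which the authors' Agilent Feature Extraction runs (11.0.1.1 per the file headers, 8.5.1.1 per the labels) had background-subtracted and dye-normalized. The study's methods name the opposite dye for the reference. The deposited log10 ratios and the other spot flags came from the same software, and the authors' deposited matrix holds log2 ratios, turned here to tumor over reference. Scanner and matrix columns matched at r = 0.957 to 0.976 in the 14 tumors, and the matrix is centred near 0.

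Log2 ratios were computed per spot without outliers and averaged per probe. Probes over a signal of 10 in both channels on 80% of the 41 arrays were kept (27307 of 39429), and 1 probe per gene of highest mean signal was used. Probe names were matched to RefSeq (GRCm38.p6) by accession for 15676, by symbol for 1081 and by an older symbol for 191 of 20913 genes. limma 3.58.1 in R 4.3.3 fitted the 4 diet groups of the 29 epithelial tumors (25 residual degrees of freedom), with Benjamini-Hochberg adjustment over all genes at 0.10. The 10 genes of smallest p per direction with a symbol and a signal well above background in at least 50% of the tumors of a group were named, with list members of smallest p and genes the study stained, and some list members are not reported here. Members and lists were chosen with earlier results of these data known. Nothing states whether tumors came from separate mice, so p-values measure the spread between tumors. The number of arrays limits precision. The fits were tested on simulated data. Alternatives changed the background correction, centring, source, filter, probe choice, outliers, samples, covariates, slide, threshold and variance model.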

Additional observations from a re-analysis of the deposited data

Results flagged for a closer look

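The reference channel differed between the LFD-HFD and the LFD arrays for 962 genes at an adjusted p under 0.10 (limma), although it held 1 RNA throughout.

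In 204 sets of values (a named gene or a list in 1 group), 18 values of a tumor lay far from the rest of their group by Dixon's criterion, where chance gives about 1 in 20. The LFD tumor 13L accounted for 6: Atp5a1 (-0.25, next -0.87), Ciita (1.91, next 0.68), Cdh3 (-4.75, next -0.77), Ccng1 (-3.63, next -2.28), Trp53 (-2.25, next 0.41) and the respiratory chain mean (-1.09, next -1.38). The LFD tumor 17R was far from the others for Arg1 (1.15, next -1.61), Elf5 (1.81, next 3.07) and the M2 macrophage mean (1.69, next 0.07). The LFD tumor 22R stood out for Cav2 (5.44, next 1.64) and Cav1 (-0.34, next -2.04), and 31R for the luminal mean (2.95, next 1.585).

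In the LFD-HFD group 90R was far from the others for Pdgfa (2.49, next 0.705), Fasn (-0.92, next -0.02) and the mean over Trp53 targets (0.355, next -0.26). LFD-HFD replicate 1 stood out for Itgam (2.22, next 0.85) and Elf5 (4.89, next 4.08) and 82L for Esr1 (-2.60, next 0.30).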

How the results depend on the processing

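The counts of called genes stayed at 0 except for 2 genes lower with normexp and loess (Prss48 at -1.07, adjusted p = 0.0242, and the unnamed transcript NAP111319-1), 3 higher in the fit on the 14 tumors alone (Gm11567, Slc26a3 and LOC100504614), and, with the tumor channel alone, a choice made after seeing the data, 12 higher and 2 lower. With each of the 14 tumors left out, the counts higher, lower and differing by onset ranged from 0 to 0. Under the alternatives, 1893 values of named genes kept their direction and side of the threshold. Since no gene was called in the first place, the side was rarely at stake, and sizes could shrink. The lowest difference was 0.446 for Celf6 (1.24 above), 0.049 for Itgam (0.66), 0.006 for Stard4 (0.555) and 0.48 for Cyp4a14 (1.03). Rmrp stayed between 0.791 and 0.976. Another 2 values newly passed the threshold (Prss48 as above, Gsk3a with the tumor channel alone) and 24 had the opposite sign. With the tumor channel alone these were Prss48 (0.40), BC048507 (1.405), Gm8618 (1.44), Gm6272 (0.90), Ppp5c (0.305), 4930532I03Rik (0.86), Krt18 (-0.10) and Cry1 (0.175). With the authors' matrix they were Fcrla (0.39), Tnnc2 (-0.055) and Krt18 (-0.29). In late tumors they were Arg1 (1.11), Fcrla (0.15), Krt5 (0.82), Cdh3 (0.75), Esr1 (1.504) and Trp53 (0.41), and in early tumors Cftr (0.42). Leaving out 1 tumor gave -0.553 to 0.026 for Cftr (above 0 without LFD-HFD replicate 1), -0.517 to 0.283 for Krt5 (0 without 80L, 0.283 without 17R), -1.129 to 0.044 for Esr1 (0.03 without 82L, 0.044 without 31R) and -0.659 to 0.075 for Arg1 (above 0 without 17R). The MHC class II median was -0.485 with the tumor channel alone and that of mesenchymal and EMT factors 0.363 without 80L. The cause was not tested. Without 11L the counts at an unadjusted p under 0.05 were 664 higher and 876 lower. No paired analysis was possible because the labels give no number that pairs an LFD-HFD with an LFD tumor. Slide is confounded with diet. The scanner and matrix labels of 3 HFD tumors disagree. These tumors enter the spread and the HFD averages given above, and 65R, which had the highest St7 value in HFD, is one of them.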
